A study of Arabidopsis thaliana with 24 samples.

Results

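Messenger RNA of 10 nuclear genes for photosystem subunits was measured in whole 9-day-old Arabidopsis thaliana seedlings, out of 32833 genes with counts. The members were taken by gene name. PSAD1, PSAE1, PSAF, PSAG and PSAN encode subunits of photosystem I, and PSBO1, PSBO2, PSBP1, PSBQ2 and PSBR encode subunits of photosystem II. All 10 passed the expression filter in each fit, and their smallest count in any library was 1825, for PSAN. Photosystem II takes electrons from water and photosystem I passes them to ferredoxin, both in the thylakoid membrane of the chloroplast. The reaction-centre proteins that hold the chlorophyll are encoded in the chloroplast itself, and the members encode proteins, imported from the cytosol, that surround them. On the stromal face of photosystem I, PSAD and PSAE form the docking site of ferredoxin. PSAF and PSAN lie towards the lumen, where plastocyanin docks, and PSAG is a membrane subunit at the side of the light-harvesting antenna. PSBO, PSBP and PSBQ are the extrinsic proteins that shield the water-splitting manganese cluster, and PSBR is a small subunit that helps PSBP to bind.

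The groups were the exa1-1 mutant line with 200 mM NaCl, the wild type (WT) Col-0 with 200 mM NaCl, exa1-1 on half-strength Murashige and Skoog medium without added salt (1/2 MS) and WT on 1/2 MS, which made up the salt series. In the heat series they were exa1-1 at 39 °C, WT at 39 °C, exa1-1 at 23 °C and WT at 23 °C. Each of the 8 groups had 3 libraries, each treatment lasted 60 min, and all seedlings had grown on the same medium with sucrose. EXA1 encodes a protein with a GYF domain, and exa1-1 is a single mutant line, so an effect of EXA1 and of any other difference of that line cannot be told apart. EXA1 counts were 240 to 1162 in exa1-1 libraries, against 2179 to 4606 in WT libraries, and were lower in exa1-1 in each condition. Whole seedlings were sampled, so fewer cells of a type and less RNA per cell cannot be told apart.

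PSBO1 and PSBO2 are the closest pair among the members, and the pair is shown here because the ratio of its genes is described below. The coding sequences of PSBO2 and PSBO1 were identical at 83.8% of 996 aligned bases. The 150 bases in which they were most alike, coding bases 823 to 972 of PSBO2 and 826 to 975 of PSBO1, differed at 13 bases, given in capitals (RefSeq, TAIR10.1).
PSBO2: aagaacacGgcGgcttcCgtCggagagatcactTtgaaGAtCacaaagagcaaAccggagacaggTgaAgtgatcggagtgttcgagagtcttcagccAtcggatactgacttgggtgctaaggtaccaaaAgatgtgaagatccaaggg
PSBO1: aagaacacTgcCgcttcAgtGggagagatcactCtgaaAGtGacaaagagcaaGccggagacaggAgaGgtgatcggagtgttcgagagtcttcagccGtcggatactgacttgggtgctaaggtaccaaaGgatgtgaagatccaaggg
The longest run that the transcripts of the pair shared was 32 bases, so reads confined to such a run fit both genes and make the values of the pair uncertain to that extent.

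The 250 bases before the annotated start of each gene were read from TAIR10.1 for 6 short motifs on both strands. The sequences are shown for PSBQ2, which held the most motifs, for PSAD1, which moved against the other members under salt, and for PSAG, which had the largest rise under heat. Capitals mark the matches to any motif searched except TATAAA. PSBQ2 is given from chr4:2673244-2673493, PSAD1 from chr4:1230165-1230414 and PSAG from chr1:20803450-20803699, all on the minus strand.
PSBQ2: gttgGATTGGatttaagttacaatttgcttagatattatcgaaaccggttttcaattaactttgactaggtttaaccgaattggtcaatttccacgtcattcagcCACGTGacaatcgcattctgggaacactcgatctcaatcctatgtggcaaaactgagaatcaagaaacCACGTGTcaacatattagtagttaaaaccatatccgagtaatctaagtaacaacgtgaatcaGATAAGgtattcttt
PSAD1: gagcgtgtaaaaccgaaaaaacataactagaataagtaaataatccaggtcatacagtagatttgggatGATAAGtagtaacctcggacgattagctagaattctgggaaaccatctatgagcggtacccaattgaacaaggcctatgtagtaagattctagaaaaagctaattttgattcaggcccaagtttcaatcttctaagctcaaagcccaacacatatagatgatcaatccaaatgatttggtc
PSAG: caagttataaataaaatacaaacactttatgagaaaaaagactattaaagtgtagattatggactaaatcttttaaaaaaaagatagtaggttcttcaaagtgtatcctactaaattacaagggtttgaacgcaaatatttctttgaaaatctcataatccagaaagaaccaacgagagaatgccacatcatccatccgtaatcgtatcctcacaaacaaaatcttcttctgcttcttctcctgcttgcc
The G-box CACGTG lay upstream of 1 member, PSBQ2, at -145 to -140 and at -77 to -72 from the start. Of 27443 upstream sequences of nuclear protein-coding genes, 6.49% held it. The I-box GATAAG lay upstream of 3 members, PSAD1, PSAF and PSBQ2, and of 12.3% of these genes. The motif CCAATC, which is bound by GLK factors, lay upstream of PSBQ2, and of 10.2% of these genes. The core ACGTGT of the abscisic acid response element lay upstream of PSBQ2, overlapping its second G-box, and of 10.5% of these genes. The heat shock element core was searched as GAANNTTC alone, which was found in 0 of the 10 windows and in 9.55% of all. Other arrangements of this element were not searched, so the 0 does not show that the windows lack it. The motif TATAAA was found in 5 of the members' windows, and in 47.3% of the 27443. These matches are descriptions of letters in this window. The windows of PSAG and PSAN overlap the neighbouring genes AT1G55675 and AT5G64050, and that of PSBO1 contains the tRNA gene AT5G66568. PSAG had no match outside TATAAA, and its sequence therefore has no capitals.

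On TAIR10.1, PSAD1 (AT4G02770) spans chr4:1229031-1230164 on the minus strand in 1 exon, and PSAG (AT1G55670) spans chr1:20802670-20803449 on the minus strand, also in 1 exon. PSAE1 (AT4G28750, chr4:14202758-14204061) and PSAN (AT5G64040, chr5:25628521-25629708) have 3 exons each on the minus strand, and PSAF (AT1G31330, chr1:11214676-11216141) has 2 on the minus strand. PSBO1 (AT5G66570, chr5:26568572-26570461) is on the plus strand and PSBO2 (AT3G50820, chr3:18890874-18892508) on the minus strand, with 3 exons each. PSBP1 (AT1G06680, chr1:2047634-2049439, plus strand), PSBQ2 (AT4G05180, chr4:2671523-2673243, minus strand) and PSBR (AT1G79040, chr1:29735952-29737009, plus strand) have 4 exons each. An annotated gene on the opposite strand overlaps PSAG by 479 bases (AT1G55673) and PSAE1 by 436 bases (AT4G28755). The strand setting of the counting is not stated in the labels, so the values of PSAG and PSAE1 are uncertain to the extent of these overlaps. AT1G55673 had 235 to 2532 counts and AT4G28755 163 to 1237, against at least 5720 for PSAG and 3657 for PSAE1. Overlaps of PSAN, PSBP1 and PSBR with neighbours were 51 bases or shorter.

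Libraries held 17658196 to 20992263 counts. The make-up of the libraries differed with heat: the 100 most abundant genes took 34.5% to 35.4% of counts in exa1-1 and 32.3% to 34.2% in WT at 39 °C, against 14.4% to 14.6% in exa1-1 and 15.3% to 16.5% in WT at 23 °C. The main test, edgeR with TMM scaling, adjusts for this on the assumption that most genes do not change or that rises and falls balance. With heat in WT, 38.4% of genes tested rose and 41.6% fell. FPKM, fragments scaled to gene length and to the library, follow the total count. Which scaling is nearer to the RNA in the seedlings was not tested. With the total count as the only scaling, the median log2 change of all genes moved by -0.995 for heat in exa1-1 and by -0.88 in WT, by -0.13 for salt in exa1-1 and by -0.12 in WT, and by -0.11 and -0.15 between the control sets of exa1-1 and of WT. The share of rises among all calls was then 13.9% in place of 47.8% for heat in exa1-1, 16.7% in place of 48.0% for heat in WT, 39.7% in place of 49.7% for salt in exa1-1 and 40.2% in place of 49.8% for salt in WT. Log2 changes given below use TMM scaling, and levels are FPKM. Marker lists of root and of shoot were measured beside the members. The shoot and leaf markers were RBCS1A, RCA, LHCB1-3, KAT1, FAMA and ATML1, of which RBCS1A, RCA and LHCB1-3 are themselves photosynthesis genes. With total counts in WT, the log2 changes of these markers, in this order, were 0.03, 1.51, 0.17, -1.74, -2.72 and -0.94 at 39 °C. With NaCl they were 0.54, 0.75, 0.67, 0.48, -0.03 and -1.04. The sum of this list is thus not separate from photosynthesis genes. In CPM, counts scaled to the library total, the 13 root markers summed to 1476 to 1521 in exa1-1 and 1181 to 1199 in WT with NaCl, against 2658 to 2945 in exa1-1 and 2585 to 2927 in WT on 1/2 MS. At 39 °C they summed to 310.4 to 326 in exa1-1 and 313 to 365 in WT, against 2093 to 2905 in exa1-1 and 1891 to 1926 in WT at 23 °C. The 6 shoot and leaf markers summed to 9767 to 10289 CPM in exa1-1 and 15407 to 17491 in WT with NaCl, against 8022 to 8513 in exa1-1 and 10121 to 11387 in WT on 1/2 MS. At 39 °C they summed to 18759 to 19086 in exa1-1 and 22207 to 24349 in WT, against 14771 to 16775 in exa1-1 and 19226 to 19586 in WT at 23 °C. In each group, 0 of the markers of these lists was at 0 counts, and the part of tissue make-up in the results below was not tested.

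**Figure D1:**
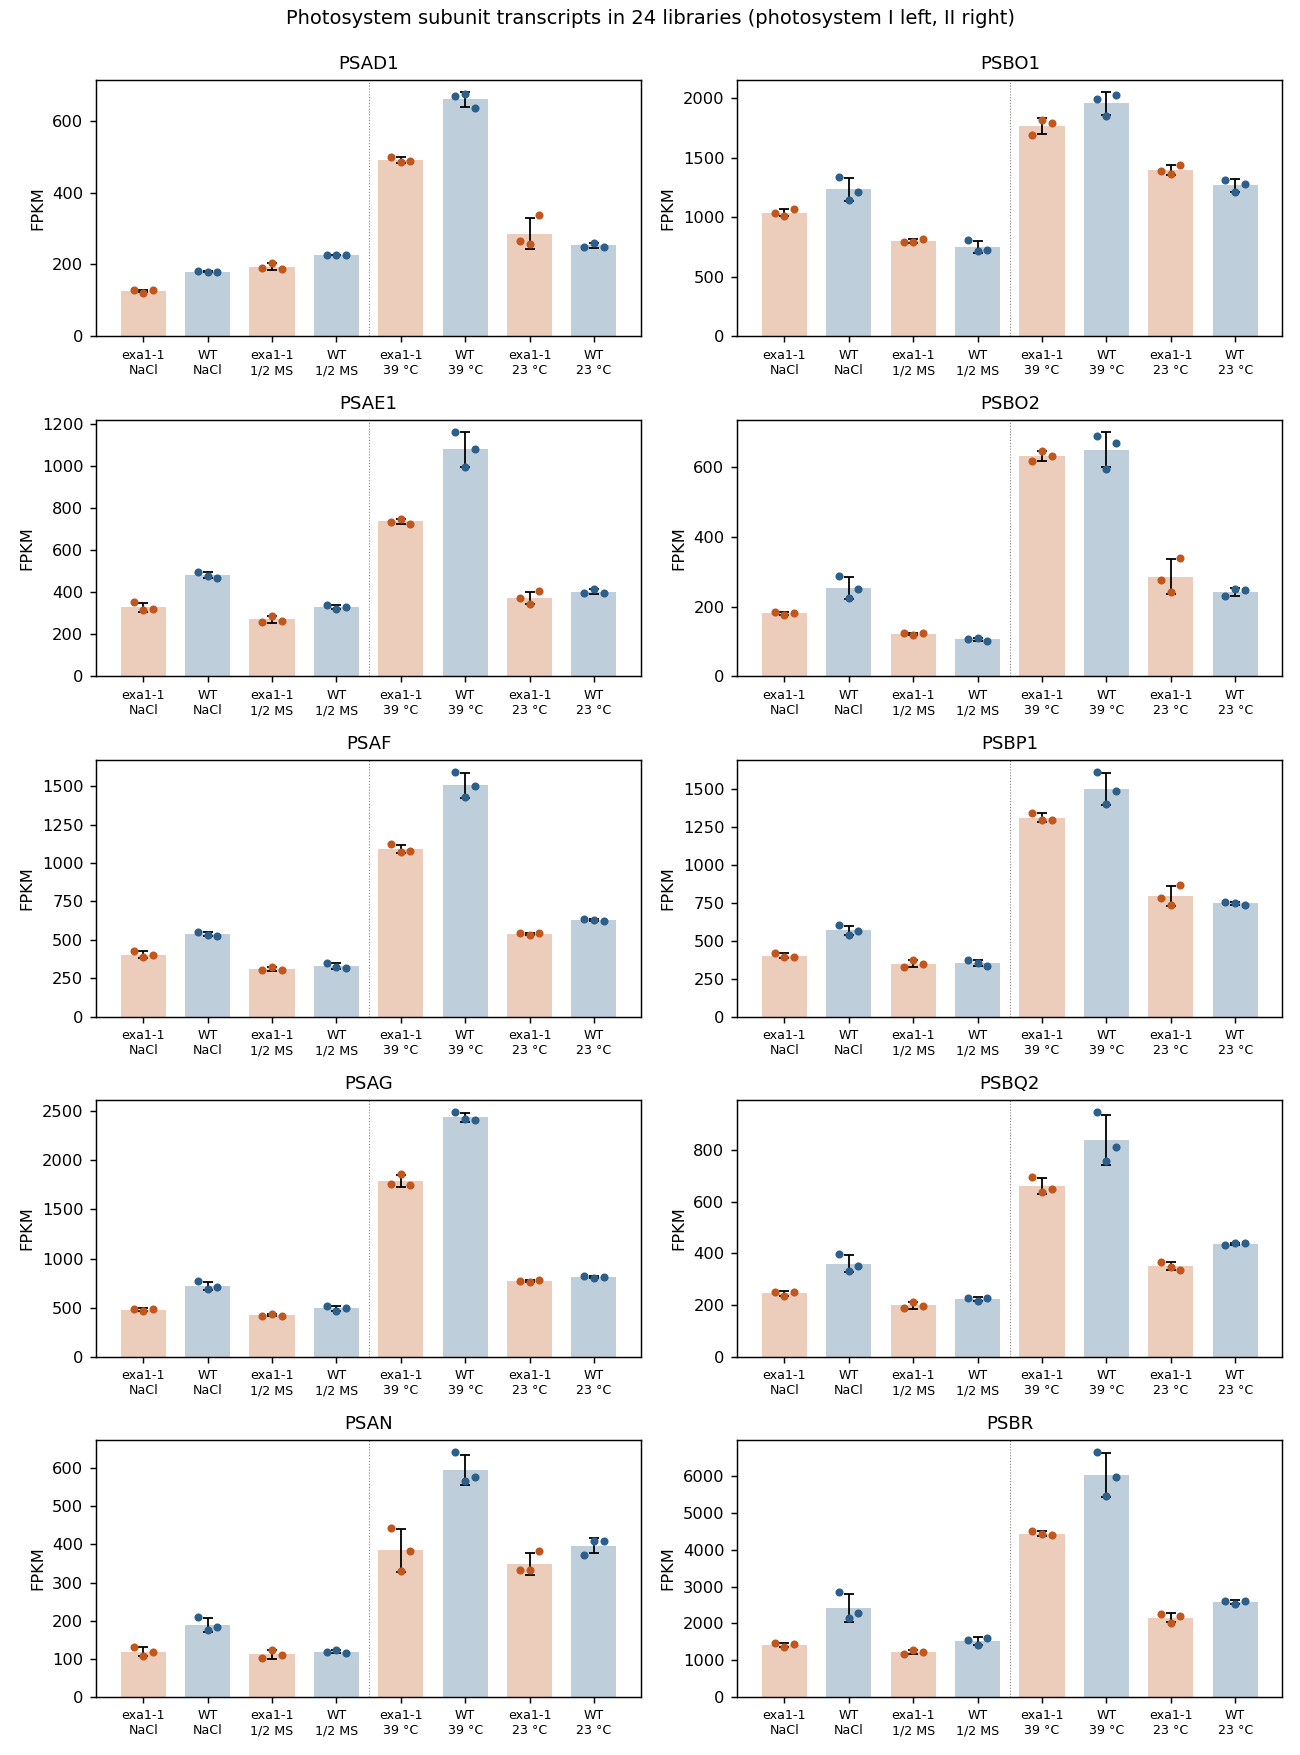
FPKM of each member (vertical axes) in the 3 libraries of each of the 8 groups (points), with the group mean (bar) and SD (error bar), for exa1-1 in orange and WT in blue. WT at 39 °C has the highest mean of all groups for each of the 10 members, and PSAD1 alone has its lowest mean with NaCl.

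Together the members took 1.38% ± 0.00982 of all counts in exa1-1 and 1.76% ± 0.113 in WT at 39 °C (SD, n = 3 each), against 0.792% ± 0.0394 in exa1-1 and 0.823% ± 0.00807 in WT at 23 °C. In the salt series they took 0.515% ± 0.0168 in exa1-1 and 0.731% ± 0.0645 in WT with NaCl, against 0.430% ± 0.0152 in exa1-1 and 0.465% ± 0.0180 in WT on 1/2 MS. By FPKM, WT at 39 °C had the highest mean for all 10 members. The lowest mean was that of exa1-1 on 1/2 MS for 7 members, of WT on 1/2 MS for PSBO1 and PSBO2, and of exa1-1 with NaCl for PSAD1. Neighbours in this order often overlapped: for PSBO2, exa1-1 and WT at 39 °C overlapped, and for PSAN, WT at 23 °C, exa1-1 at 39 °C and exa1-1 at 23 °C did. Among the members PSBR had the highest FPKM in each group, with a mean of 6030.3 in WT at 39 °C and 1519 in WT on 1/2 MS. PSBO1 came second in the 6 groups not kept at 39 °C, and PSAG came second in both genotypes at 39 °C. At the lower end were PSBO2 in WT on 1/2 MS, at 107 ± 5.03 FPKM (SD, n = 3), and PSAN in exa1-1 on 1/2 MS, at 112 ± 11.2.

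Salt raised 9 of the 10 members in both genotypes and lowered PSAD1, although the count of rises in exa1-1 was 8 with total counts, 8 in the fit of all 24 libraries and 7 with limma on FPKM, where PSAN and PSBR missed the threshold. In exa1-1, 35.7% of the 21462 genes tested rose and 36.2% fell, and in WT 35.3% rose and 35.6% fell (edgeR, adjusted p under 0.05), so a salt change in either direction was common among all genes. The median log2 change of the members was 0.37 in exa1-1 and 0.80 in WT, beside a median of -0.01 for all genes tested in each. No library with NaCl overlapped a library on 1/2 MS for 9 members in exa1-1 (75.5% of genes tested did not overlap) and for 10 in WT (72.5%). Root markers moved with this contrast, with 10 of 13 lower and 3 higher in each genotype. Of the 6 shoot and leaf markers, 3 were higher and 1 lower in exa1-1, and 4 were higher and 1 lower in WT. The part of either list in the result was not tested.

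Among the photosystem I genes, PSAD1, which encodes the main ferredoxin-docking subunit, had 128, 122 and 128 FPKM in exa1-1 with NaCl, against 191, 204 and 188 FPKM in exa1-1 on 1/2 MS. In WT it had 182, 180.2 and 179 FPKM with NaCl, against 225, 227 and 227 FPKM on 1/2 MS. Each NaCl library lay below each 1/2 MS library of its genotype. PSAD1 fell by 0.50 ± 0.05 on the log2 scale (SE) in exa1-1 (edgeR, adjusted p = 1.99e-09) and fell by 0.21 ± 0.02 in WT (adjusted p = 0.000250). PSAF, the plastocyanin-docking subunit, had 426, 386 and 399 FPKM in exa1-1 with NaCl, against 302, 322 and 304 FPKM in exa1-1 on 1/2 MS. It had 551, 533 and 524 FPKM in WT with NaCl, against 347, 326 and 313 FPKM in WT on 1/2 MS. Within a genotype the NaCl and 1/2 MS libraries did not overlap, and PSAF rose 1.43-fold in exa1-1 (log2 0.51 ± 0.05, adjusted p = 8.45e-09) and 1.77-fold in WT (log2 0.83 ± 0.06, adjusted p = 3.42e-12). PSAE1 and PSAG rose less than PSAF in both genotypes, 1.32-fold and 1.24-fold in exa1-1 and 1.59-fold and 1.60-fold in WT. PSAN, the lumenal subunit, had 131, 106 and 117 FPKM in exa1-1 with NaCl, against 102, 124 and 110 FPKM in exa1-1 on 1/2 MS, and these libraries overlapped. In WT it had 210.2, 176 and 183 FPKM with NaCl, against 118, 123 and 114 FPKM on 1/2 MS, with no overlap. PSAN rose 1.74-fold in WT (log2 0.80 ± 0.10, edgeR adjusted p = 1.26e-08). In exa1-1 its log2 change was 0.21 ± 0.12 (edgeR, adjusted p = 0.0268), and the call was lost with total counts as the only scaling (log2 0.08, adjusted p = 0.347), and when replicate 1 or 3 of exa1-1 on 1/2 MS or replicate 1 or 3 of exa1-1 with NaCl was left out.

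Among the photosystem II genes, PSBO2 had the largest rise. It had 184, 175 and 183 FPKM in exa1-1 with NaCl, against 125, 119 and 124 FPKM in exa1-1 on 1/2 MS. In WT it had 288, 225 and 249 FPKM with NaCl, against 108, 111 and 101 FPKM on 1/2 MS. Neither genotype overlapped between the conditions, and PSBO2 rose 1.61-fold in exa1-1 (log2 0.69 ± 0.03, edgeR adjusted p = 1.37e-08) and 2.59-fold in WT (log2 1.37 ± 0.12, adjusted p = 1.83e-13). PSBO1, the other gene for the manganese-stabilising protein and the more abundant, had 1033, 1010.45 and 1068 FPKM in exa1-1 with NaCl, against 789, 795 and 819 FPKM in exa1-1 on 1/2 MS. In WT it had 1341, 1147 and 1213 FPKM with NaCl, against 809, 715 and 724 FPKM on 1/2 MS. It rose 1.41-fold in exa1-1 (log2 0.50 ± 0.03) and 1.79-fold in WT (log2 0.84 ± 0.10). PSBR had 1463, 1348 and 1427 FPKM in exa1-1 with NaCl, against 1157, 1286 and 1207 FPKM in exa1-1 on 1/2 MS. In WT it had 2848, 2141 and 2269 FPKM with NaCl, against 1542, 1405 and 1610.5 FPKM on 1/2 MS, so that replicate 1 with NaCl stood above the others. PSBR rose 1.27-fold in exa1-1 (log2 0.34 ± 0.06, edgeR adjusted p = 0.000714, but limma on log2(FPKM + 1) adjusted p = 0.0531) and 1.73-fold in WT (log2 0.79 ± 0.15, adjusted p = 1.55e-08). PSBP1 and PSBQ2, the other extrinsic proteins, rose 1.26-fold and 1.35-fold in exa1-1, and 1.74-fold and 1.76-fold in WT.

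With NaCl, all 10 members were lower in exa1-1 than in WT, and the libraries of the genotypes did not overlap for any of them. Of all genes tested, 13.6% were lower in exa1-1 with NaCl, and 42.7% did not overlap. The difference ran from -0.25 ± 0.08 for PSBO1 (edgeR, adjusted p = 0.00228) to -0.78 ± 0.14 for PSBR (log2, SE, adjusted p = 3.16e-07), with a median of -0.53 over the members and of 0.02 over all genes tested. PSAN was 1.60-fold lower, PSBQ2 1.47-fold and PSAE1 1.46-fold, and PSAG differed by -0.59 ± 0.06. Of the 6 shoot and leaf markers, which include photosynthesis genes, 4 were lower and 0 higher in exa1-1. Of the 13 root markers, 3 were higher and 1 lower, and the part of either list in the result was not tested. On 1/2 MS, 4 members were lower in exa1-1 (PSAD1, PSAE1, PSAG and PSBR) and 6 did not pass the test, where 10.1% of all genes tested were lower and 8.14% higher. The libraries of 6 members did not overlap (33.3% of genes tested). On 1/2 MS, 4 of the same 6 shoot and leaf markers were lower and 0 higher in exa1-1. Root markers were higher for 5 of 13 and lower for 2, and the part of either list in the result was not tested. PSBR had the largest difference, with 1157, 1286 and 1207 FPKM in exa1-1 and 1542, 1405 and 1610.5 FPKM in WT, a log2 difference of -0.32 ± 0.07 (edgeR, adjusted p = 0.00699). PSBO1 and PSBO2 had positive differences on 1/2 MS, 0.09 ± 0.06 and 0.19 ± 0.05, which did not pass the test (edgeR, adjusted p = 0.297 and 0.0604).

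The change with NaCl itself differed between the genotypes. It was lower in exa1-1 than in WT for all 10 members by the interaction term, while 5.16% of all genes tested had a lower change in exa1-1. The interaction was -0.68 ± 0.13 for PSBO2 (log2, SE, edgeR adjusted p = 8.82e-05), -0.59 ± 0.16 for PSAN (adjusted p = 0.00149) and -0.47 ± 0.10 for PSBP1 (adjusted p = 0.000557). For PSBR it was -0.45 ± 0.16 (edgeR, adjusted p = 0.0114), for PSBQ2 -0.38 ± 0.12, for PSAG -0.36 ± 0.08 and for PSBO1 -0.34 ± 0.10. PSAF, PSAD1 and PSAE1 had the smallest interactions, at -0.31 ± 0.08, -0.29 ± 0.05 and -0.26 ± 0.09. PSAD1 thus differed in the same direction as the rest, though it was lower with NaCl in both genotypes. The call for PSAE1 (edgeR, adjusted p = 0.0267) was lost when replicate 2 of exa1-1 on 1/2 MS, replicate 1 of WT with NaCl, or replicate 2 or 3 of exa1-1 with NaCl was left out, with log2 values of -0.22 to -0.34 over all such fits. In DESeq2, PSBR was at an adjusted p = 0.0576, and with limma on log2(FPKM + 0.1) at 0.0512. In the edgeR fit of all 24 libraries, PSAE1 was at an adjusted p = 0.0868. Replicate 1 of WT with NaCl had the highest FPKM of its group for each member. Without this library the members' median interaction was -0.29 in place of -0.37. The term was then still past the threshold for the 9 members other than PSAE1.

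**Figure D2:**
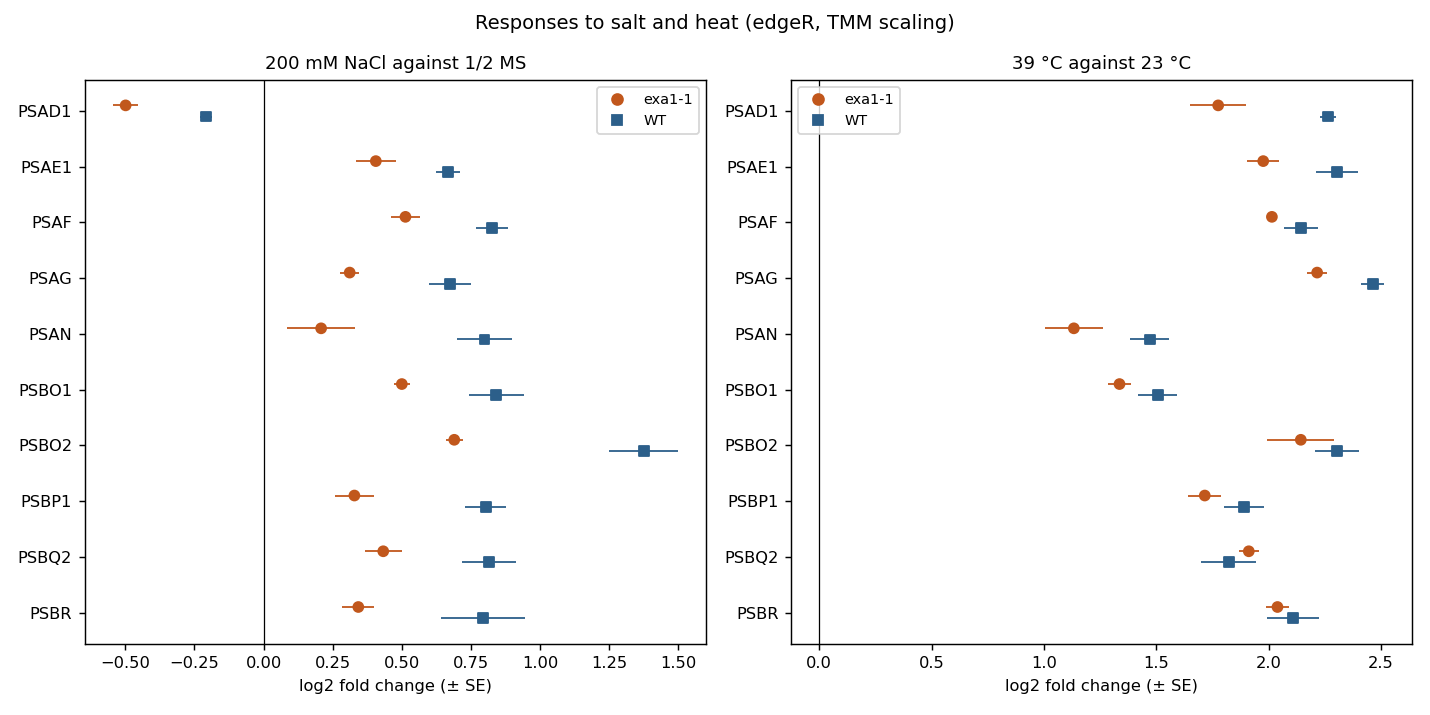
Log2 fold change with its SE (edgeR, TMM scaling) of each member for 200 mM NaCl against 1/2 MS (left) and for 39 °C against 23 °C (right), in exa1-1 (orange circles) and WT (blue squares). With NaCl the exa1-1 change lies below the WT change for all 10 members, and PSAD1 is the one member below 0; at 39 °C both genotypes lie above 1 for all members.

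Heat raised all 10 members in both genotypes, where 38.4% of the 20972 genes tested rose in exa1-1 and 38.4% in WT. The median log2 change was 1.94 in exa1-1 and 2.13 in WT, beside medians of -0.08 and -0.07 for all genes tested. No library at 39 °C overlapped one at 23 °C on the TMM scale for any member in either genotype (81.2% of genes tested did not overlap in exa1-1 and 81.8% in WT). The size of these changes rested on the scaling. With the total count as the only scaling, the members' median was 0.95 in exa1-1 and 1.24 in WT, beside medians of -1.08 and -0.95 for all genes tested, and 9 members in exa1-1 and 10 in WT were still called higher. Root markers were lower at 39 °C, 10 of 13 in exa1-1 and 9 of 13 in WT, with 0 higher, and of the 6 shoot and leaf markers 3 were higher and 2 lower in each genotype, and the part of either list in the result was not tested.

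PSAG, the membrane subunit of photosystem I, had the largest heat change. It had 1756, 1861 and 1750.2 FPKM in exa1-1 at 39 °C, against 769, 758 and 778 FPKM in exa1-1 at 23 °C. In WT it had 2491, 2419 and 2407 FPKM at 39 °C, against 826, 802 and 816 FPKM at 23 °C. It rose 4.64-fold in exa1-1 (log2 2.22 ± 0.04, edgeR adjusted p = 1.55e-16) and 5.51-fold in WT (log2 2.46 ± 0.05, adjusted p = 3.66e-17), and by total counts 2.33-fold and 2.99-fold. PSAD1, the member that fell with NaCl, had 499, 484 and 489 FPKM in exa1-1 at 39 °C, against 264, 257 and 337 FPKM in exa1-1 at 23 °C. In WT it had 668, 674 and 636 FPKM at 39 °C, against 248, 261 and 249.7 FPKM at 23 °C. Replicate 3 of exa1-1 at 23 °C stood above its group, and within a genotype the temperatures did not overlap. PSAD1 rose 3.42-fold in exa1-1 (log2 1.78 ± 0.13) and 4.80-fold in WT (log2 2.26 ± 0.03). PSAE1, the ferredoxin-side partner of PSAD1, rose 3.93-fold in exa1-1 and 4.94-fold in WT, and PSAF rose 4.04-fold and 4.42-fold.

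PSAN had the smallest heat change of the members. It had 443, 329 and 382 FPKM in exa1-1 at 39 °C, against 332, 334 and 382 FPKM in exa1-1 at 23 °C, and these FPKM values overlapped. In WT it had 642, 567 and 578 FPKM at 39 °C, against 374, 408 and 408 FPKM at 23 °C, with no overlap. On the TMM scale PSAN rose 2.19-fold in exa1-1 (log2 1.13 ± 0.13, edgeR adjusted p = 6.67e-10) and 2.77-fold in WT (log2 1.47 ± 0.09, adjusted p = 1.31e-11). With total counts, the change in exa1-1 was 1.10-fold and did not pass the test (edgeR, adjusted p = 0.136), and that in WT was 0.59 on the log2 scale.

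Among the photosystem II genes, PSBO2 had a larger heat change than PSBO1, and the difference was not tested beyond the ratio given below. PSBO2 had 618, 646 and 631 FPKM in exa1-1 at 39 °C, against 276, 241 and 339 FPKM in exa1-1 at 23 °C, and 688, 593 and 669 FPKM in WT at 39 °C, against 230.1, 251 and 248 FPKM in WT at 23 °C. PSBO1 had 1692, 1815 and 1791 FPKM in exa1-1 at 39 °C, against 1385, 1360.3 and 1441 FPKM in exa1-1 at 23 °C, and 1994, 1849 and 2027 FPKM in WT at 39 °C, against 1317, 1209 and 1282 FPKM in WT at 23 °C. No groups overlapped for either gene within a genotype. PSBO2 rose 4.42-fold in exa1-1 and 4.94-fold in WT, and PSBO1 rose 2.52-fold in exa1-1 and 2.84-fold in WT (edgeR, TMM scaling). PSBR rose 4.11-fold in exa1-1 and 4.31-fold in WT, PSBQ2 3.76-fold and 3.54-fold, and PSBP1 3.28-fold and 3.71-fold.

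**Figure D3:**
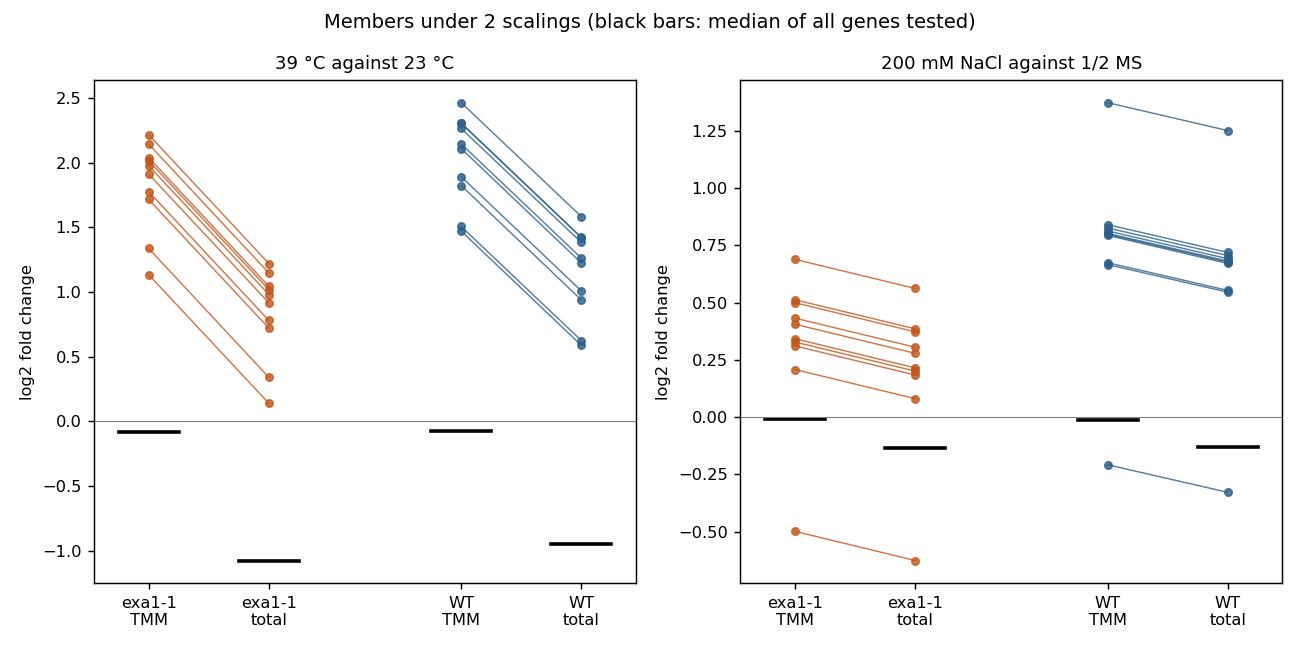
Log2 fold change of each member (points joined by lines) with TMM scaling and with the total count as the only scaling, for heat (left) and salt (right), in exa1-1 (orange) and WT (blue), with the median of all genes tested as a black bar. A change of scaling shifts all genes alike by construction: the median moves by -0.995 in exa1-1 and -0.88 in WT for heat, and by -0.13 in exa1-1 and -0.12 in WT for salt.

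At 39 °C, 7 of the 10 members were lower in exa1-1 than in WT and 3 did not pass the test (PSBO1, PSBO2 and PSBP1), where 11.7% of all genes tested were lower. All 5 photosystem I members were among the 7, with PSBQ2 and PSBR. PSAN differed by -0.59 ± 0.14 (log2, SE, edgeR adjusted p = 0.000116), PSAE1 by -0.50 ± 0.10 (adjusted p = 9.19e-05), PSAF by -0.42 ± 0.07, PSAG by -0.40 ± 0.06 and PSAD1 by -0.38 ± 0.03. PSBR had 4511, 4427 and 4394 FPKM in exa1-1, against 6659, 5458 and 5974 FPKM in WT, with no overlap and a log2 difference of -0.39 ± 0.11 (edgeR, adjusted p = 0.00199). PSBO2 was at 0.01 ± 0.10 (edgeR, adjusted p = 0.975). The call for PSBQ2 (log2 -0.30, edgeR adjusted p = 0.0112) was lost without replicate 1 of WT at 39 °C, at -0.17, or without replicate 3 of exa1-1 at 39 °C, at -0.28. PSBP1 passed the test with total counts (log2 -0.19, edgeR adjusted p = 0.0351) and without replicate 2 of WT at 39 °C, at -0.22. On the TMM scale the libraries of 7 members did not overlap (37.5% of genes tested). By FPKM those of 9 did not, but the share over all genes was not computed for FPKM, so this count has no background here. The share of higher calls among all genes called between the genotypes was 51.9% with TMM scaling and 37.5% with total counts. The part of photosystem I genes in the members' counts was 30.6% ± 0.326 in exa1-1 and 33.8% ± 0.964 in WT at 39 °C (SD, n = 3 each), and the libraries did not overlap. The same share was 28.1% ± 0.445 in exa1-1 and 29.2% ± 0.546 in WT at 23 °C, and 29.1% ± 0.470 in exa1-1 and 30.6% ± 0.491 in WT on 1/2 MS, again lower in exa1-1 with no overlap. With NaCl it was 26.9% ± 0.479 in exa1-1 and 27.3% ± 1.35 in WT, and these libraries overlapped.

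At 23 °C, 3 members were lower in exa1-1, PSAF, PSBQ2 and PSBR, and 7 did not pass the test, where 11.2% of all genes tested were lower and 8.27% higher. The libraries of 6 members did not overlap on the TMM scale (38.2% of genes tested). PSAF had 542, 529 and 543 FPKM in exa1-1, against 635, 629.7 and 621 FPKM in WT, and PSBQ2 had 367, 349 and 337 FPKM in exa1-1, against 434, 441 and 439 FPKM in WT. PSAF differed by -0.29 ± 0.03 (edgeR, adjusted p = 0.00441), PSBQ2 by -0.39 ± 0.04 (adjusted p = 0.00249) and PSBR by -0.33 ± 0.06 (adjusted p = 0.00996). The call for PSBR was lost without replicate 1 or 3 of WT at 23 °C or replicate 2 of exa1-1 at 23 °C, with log2 differences of -0.26 to -0.30 there. Among all genes called, 42.6% were higher in exa1-1 with TMM scaling and 63.4% with total counts. Of the shoot and leaf markers, 0 of 6 were called between the genotypes at 39 °C, and 2 were lower and 0 higher in exa1-1 at 23 °C, while of the 13 root markers 3 were higher and 2 lower at 39 °C and 5 were higher and 3 lower at 23 °C. By the interaction term, the heat change was lower in exa1-1 for 1 member, PSAD1, at -0.49 ± 0.13 (log2, SE, edgeR adjusted p = 0.0116), where 3.69% of all genes tested were lower. With total counts the count was 5, with PSAE1, PSAG, PSAN and PSBO1 added, and 1563 of all genes tested were lower in place of 773. The share of higher calls among all genes called was then 20.5% in place of 54.2%. The highest library of PSAD1 in exa1-1 at 23 °C moves with this term: over the fits that leave out 1 library the value was -0.37 to -0.58, and the call held in each.

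**Figure D4:**
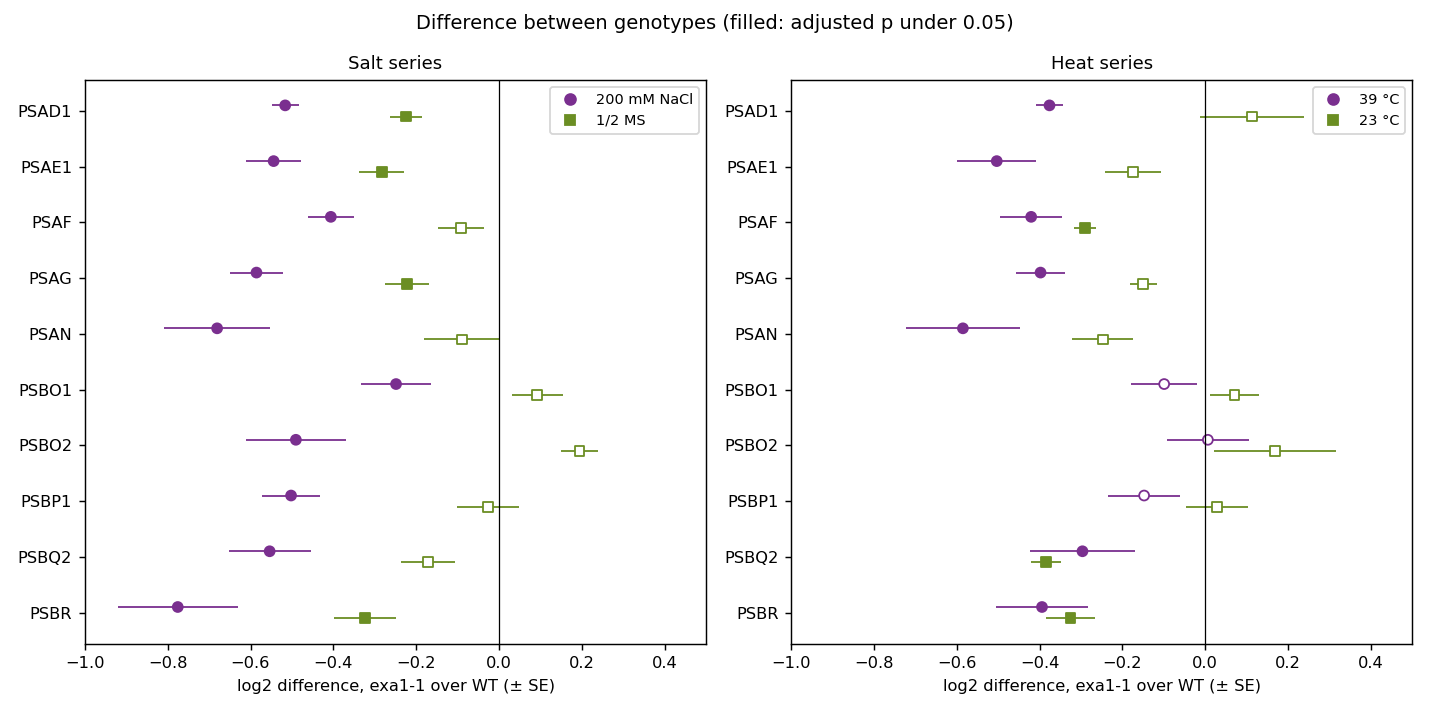
Log2 difference of exa1-1 over WT with its SE (edgeR) for each member, with NaCl and on 1/2 MS (left) and at 39 °C and 23 °C (right), with filled symbols for an adjusted p under 0.05. With NaCl all 10 members are filled and below 0, against 4 on 1/2 MS, 7 at 39 °C and 3 at 23 °C.

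The salt and the heat series had their own controls, and the members differed between them. All 10 were higher at 23 °C than on 1/2 MS in both genotypes, where 32.9% of 21262 genes tested were higher in exa1-1 and 33.7% in WT. The median log2 difference was 0.93 in exa1-1 and 1.00 in WT, and no libraries overlapped for any member (69.2% of genes tested in exa1-1 and 72.3% in WT). PSAN, with 332, 334 and 382 FPKM in exa1-1 at 23 °C, against 102, 124 and 110 FPKM in exa1-1 on 1/2 MS, and 374, 408 and 408 FPKM in WT at 23 °C, against 118, 123 and 114 FPKM in WT on 1/2 MS, differed most. It was 3.37-fold higher in exa1-1 and 3.71-fold higher in WT (edgeR, adjusted p = 6.38e-13 and 1.46e-13). PSAD1 differed least in WT, 1.24-fold (edgeR, adjusted p = 0.00198), and that call was lost with total counts (log2 0.16, adjusted p = 0.0732), where the share of higher calls among all genes was 38.0% in place of 48.8%. For exa1-1 that share was 41.1% in place of 50.1%. Of the 6 shoot and leaf markers, 3 were higher and 0 lower at 23 °C in exa1-1, and 3 were higher and 1 lower in WT. Of the 13 root markers, 2 were higher and 2 lower in exa1-1, and 4 were higher and 5 lower in WT. The part of either list in the result was not tested. The labels do not say in what the control sets differ beyond their names, so the set and the conditions within it cannot be told apart.

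The difference between the heat and the salt change, taken within a genotype over all 24 libraries, was positive for all 10 members with TMM scaling, where 36.0% of 21907 genes tested were higher in exa1-1 and 34.9% in WT. With total counts 8 members were called in exa1-1 and 7 in WT, and the median over the members was 0.62 in place of 1.49 in exa1-1 and 0.44 in place of 1.19 in WT. Rises were then 17.9% in place of 48.5% of all calls in exa1-1 and 20.8% in place of 47.6% in WT. PSAD1 had the largest difference, 2.27 ± 0.14 in exa1-1 and 2.46 ± 0.04 in WT (log2, SE, edgeR adjusted p = 2.17e-18 and 3.40e-19), since its changes had opposite signs. PSAG followed with 1.90 ± 0.06 in exa1-1 and 1.77 ± 0.10 in WT. PSBO1 had the smallest, 0.83 ± 0.06 in exa1-1 and 0.65 ± 0.14 in WT, and its sign turned with total counts, at -0.03 in exa1-1 and -0.10 in WT, neither past the threshold (edgeR, adjusted p = 0.713 and 0.277). PSAN in WT turned as well: it was at 0.66 ± 0.14 with TMM scaling (edgeR, adjusted p = 6.70e-05) and at -0.09 with total counts (adjusted p = 0.519). With total counts PSAN in exa1-1 was at 0.06 (edgeR, adjusted p = 0.684) and PSBO2 in WT at 0.17 (adjusted p = 0.199).

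Several members have a second gene for the same protein, and the ratio of FPKM within such a pair does not depend on library scaling. With 3 libraries in each group, the exact permutation test of such a ratio (two-sided) cannot give a p below 0.1. The PSBO2/PSBO1 ratio was 0.178, 0.173 and 0.171 in exa1-1 with NaCl, against 0.158, 0.149 and 0.151 in exa1-1 on 1/2 MS. In WT it was 0.215, 0.196 and 0.206 with NaCl, against 0.133, 0.155 and 0.140 on 1/2 MS. It was higher with NaCl in each library of both genotypes, by 0.19 ± 0.03 in exa1-1 and 0.53 ± 0.07 in WT (log2, SE, exact p = 0.1 each). Under heat it was 0.358 ± 0.00696 in exa1-1 and 0.332 ± 0.0123 in WT at 39 °C (SD, n = 3 each), against 0.204 ± 0.0295 in exa1-1 and 0.192 ± 0.0164 in WT at 23 °C, again with no overlap. Within each series the PSBO2 level was thus higher relative to PSBO1 under stress than in the control of that series. The ratio also differed between the control sets, with no overlap. It was higher at 23 °C than on 1/2 MS by 0.41 ± 0.12 in exa1-1 and 0.43 ± 0.10 in WT (log2, SE, exact permutation p = 0.1 each). The PSBO2 level was below the PSBO1 level in each library.

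The PSAE1/PSAE2 ratio was 1.22, 1.23 and 1.24 in exa1-1 and 1.62, 1.55 and 1.60 in WT at 39 °C, against 0.748, 0.714 and 0.897 in exa1-1 and 0.754, 0.868 and 0.771 in WT at 23 °C. PSAE1 was thus above PSAE2 in each library at 39 °C and below it in each at 23 °C. At 39 °C the ratio was lower in exa1-1 than in WT, by -0.37 ± 0.02 on the log2 scale (exact p = 0.1). The PSAD1/PSAD2 ratio separated the series more than the treatments. It was 6.00 ± 0.0470 in exa1-1 and 4.72 ± 0.237 in WT with NaCl, against 6.61 ± 1.10 in exa1-1 and 6.04 ± 0.404 in WT on 1/2 MS (SD, n = 3 each). In the heat series it was 2.74 ± 0.208 in exa1-1 and 2.61 ± 0.0192 in WT at 39 °C, against 2.62 ± 0.0324 in exa1-1 and 2.53 ± 0.0926 in WT at 23 °C. PSAD2 had a log2 change with NaCl of -0.39 in exa1-1 (edgeR, adjusted p = 0.000693) and of 0.15 in WT, which did not pass the test (adjusted p = 0.125). The PSBQ2/PSBQ1 ratio was 0.763 ± 0.0144 in exa1-1 and 0.846 ± 0.0437 in WT at 39 °C, against 0.526 ± 0.0754 in exa1-1 and 0.687 ± 0.0164 in WT at 23 °C. PSBP2, a shorter relative of PSBP1, was at 5.66 FPKM or lower in each library. The longest runs shared within these pairs were 22 to 35 bases.

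**Figure D5:**
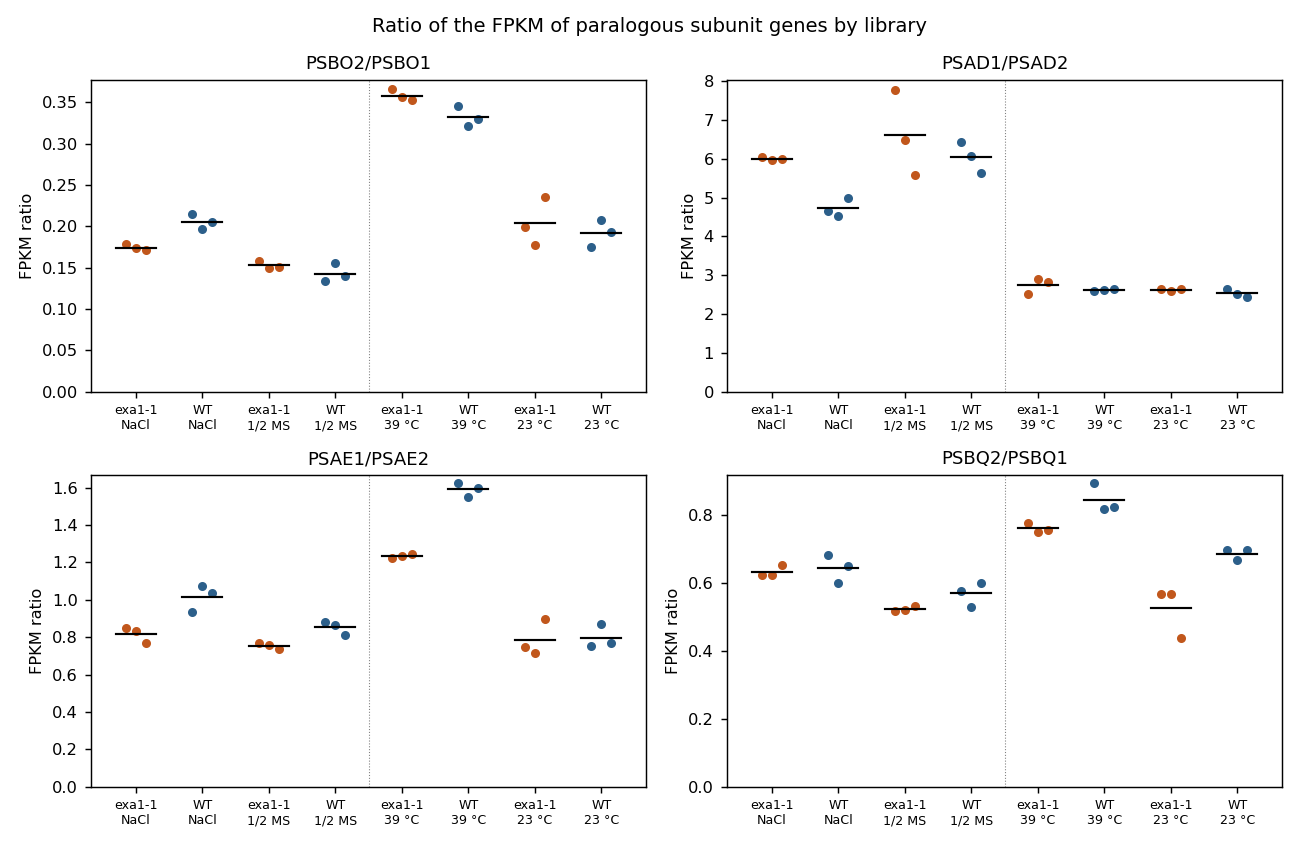
Ratio of the FPKM of each member to that of its relative (vertical axes) in the libraries of the 8 groups (points, exa1-1 in orange and WT in blue), with the group mean as a line. PSBO2/PSBO1 and PSAE1/PSAE2 are highest at 39 °C, and PSAD1/PSAD2 is between 4.52 and 7.77 in the salt series and between 2.45 and 2.90 in the heat series.

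The remaining nuclear photosystem subunits, a list of 16 genes that includes PSAD2, PSAE2 and PSBQ1, were counted in the same fits. With NaCl, 9 rose and 4 fell in exa1-1, and 14 rose and 0 fell in WT, and the interaction was lower in exa1-1 for 12 (edgeR). The 4 that fell in exa1-1 were PSAD2, PSAH2, PSB28 and PSBX. PSAO, a subunit of photosystem I beside the antenna of photosystem II, rose by 0.53 ± 0.09 in exa1-1 and 0.92 ± 0.08 in WT (log2, SE). PSBS, which senses lumen acidity for the dissipation of excess light, was at 0.08 in exa1-1 (edgeR, adjusted p = 0.0950) and rose by 0.60 ± 0.02 in WT, with an interaction of -0.52 ± 0.05 (adjusted p = 1.45e-05). With NaCl, 15 of the 16 were lower in exa1-1 than in WT. At 39 °C, 15 of 16 rose and 0 fell in both genotypes, while with total counts 13 rose and 2 fell in exa1-1 and 15 rose and 1 fell in WT. PSAO rose by 2.34 ± 0.09 in exa1-1 and 2.83 ± 0.06 in WT.

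The chloroplast-encoded subunits were measured at low levels, with sums of 27.5 to 71.7 CPM in the 24 libraries over 20 genes. Of these genes, 2 or 3 were at 0 in each group. The 16 other nuclear subunits summed to 2949 to 10550 CPM. How fully the libraries captured chloroplast transcripts was not tested, so the values below need not follow transcript levels in the chloroplast. With NaCl, 10 of the 20 could be tested, and 0 rose, while 2 fell in exa1-1 and 4 in WT, among them PSBA (the D1 protein of photosystem II), by -0.56 ± 0.26 in exa1-1 and -0.74 ± 0.37 in WT (log2, SE). At 39 °C, 11 could be tested, and 7 rose and 2 fell in each genotype, while with total counts 4 rose and 4 fell in exa1-1 and 3 rose and 3 fell in WT. PSBK, a small subunit of photosystem II, had 73.5, 61.0 and 72.7 FPKM in exa1-1 at 39 °C, against 7.33, 11.3 and 9.05 FPKM in exa1-1 at 23 °C. In WT it had 53.1, 73.4 and 48.3 FPKM at 39 °C, against 13.4, 21.0 and 13.3 FPKM at 23 °C, with no overlap. PSAB, a reaction-centre protein of photosystem I, moved the other way, by -2.08 ± 0.38 in exa1-1 and -1.62 ± 0.22 in WT.

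Genes for assembly and repair of the photosystems, 21 in number, rose in 10 and fell in 6 cases with NaCl in exa1-1, and rose in 16 and fell in 1 in WT, where PAM68 was the gene that fell. FTSH8, a subunit of the thylakoid protease that degrades damaged D1, had the largest rise named, by 2.13 ± 0.05 in exa1-1 and 2.15 ± 0.08 in WT, and FTSH2 rose by 0.95 ± 0.04 and 1.16 ± 0.08. At 39 °C 19 rose in each genotype and 0 fell, while with total counts 7 rose and 8 fell in exa1-1 and 13 rose and 5 fell in WT. Of 10 genes for electron transport and ATP synthase, 5 rose and 3 fell in exa1-1 and 8 rose and 0 fell in WT with NaCl, and 9 had a lower change in exa1-1 by the interaction. All 10 rose at 39 °C in both genotypes, while with total counts 7 rose and 2 fell in exa1-1 (PETE1, a plastocyanin, at -0.31 and ATPD, a subunit of ATP synthase, at -0.26) and 7 rose and 0 fell in WT. FNR2, which reduces NADP with electrons from ferredoxin, rose by 0.43 ± 0.04 in exa1-1 and 1.01 ± 0.12 in WT with NaCl, and by 2.21 ± 0.09 and 2.45 ± 0.04 at 39 °C.

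Regulators of photosynthesis genes did not move as one. GLK1, a transcription factor of nuclear photosynthesis genes, rose by 0.60 ± 0.05 in WT with NaCl (edgeR, adjusted p = 1.70e-09), with an interaction of -0.46 ± 0.07 (adjusted p = 0.000391), and its relative GLK2 rose by 0.41 ± 0.03 in WT with an interaction of -0.51 ± 0.07. Of the 9 regulators, 5 had a lower change with NaCl in exa1-1 and 0 a higher one. At 39 °C, 3 rose and 5 fell in exa1-1, and 4 rose and 5 fell in WT, where 38.4% of all genes tested rose in each genotype, 41.8% fell in exa1-1 and 41.6% in WT. With total counts 2 of the regulators rose and 7 fell in each genotype. SIG5, a sigma factor of the chloroplast RNA polymerase, rose by 3.98 ± 0.08 in exa1-1 and 4.66 ± 0.16 in WT at 39 °C, and HY5, a light-signalling factor, by 1.82 ± 0.06 in exa1-1 and 2.56 ± 0.10 in WT. Both also rose with total counts, while in WT GLK1 was at 0.39 with TMM scaling and -0.50 with total counts. SIG2, another sigma factor, turned sign in both genotypes, being at 0.68 in exa1-1 and 0.65 in WT with TMM scaling, and at -0.31 in exa1-1 and -0.23 in WT with total counts.

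Over the 24 libraries, the level of each member ran close to the mean of the other members, with a Pearson r between 0.949 for PSAD1 and 0.996 for PSAG (log2 CPM). Of 21897 other genes screened, the 5 most like the mean of the members were PSBW (r = 0.997), PSBQ1 (r = 0.996), RBP31 (r = 0.996), AT2G37220 (r = 0.996) and PETC (r = 0.995). PSBW encodes a small subunit of photosystem II and PETC the Rieske protein of the cytochrome complex between the photosystems, while RBP31 encodes an RNA-binding protein of the chloroplast. These values describe libraries that share 8 groups and the contrast between series, and carry no test. PSBW had 942, 950.2 and 928 FPKM in exa1-1 at 39 °C, against 495, 457 and 542 FPKM in exa1-1 at 23 °C, and 1381, 1270.3 and 1287 FPKM in WT at 39 °C, against 481, 499.7 and 488 FPKM in WT at 23 °C. Its libraries at 39 °C lay above those at 23 °C in both genotypes. Within the members, PSAD1 and PSAN departed most from the rest. Relative to its mean over the groups, PSAD1 was at -1.28 in exa1-1 and -0.75 in WT with NaCl, against -0.78 in exa1-1 and -0.55 in WT on 1/2 MS, while PSAN was at 0.35 in exa1-1 and 0.59 in WT at 23 °C, the highest members there on this log2 scale.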

How the data were processed

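Strand-specific, paired-end RNA-seq libraries of whole seedlings were assigned to groups by genotype and treatment in the labels, which call the replicates independent. The deposited gene counts are whole numbers with no normalization. The deposited FPKM are the authors' own, and scale with each library's total count. Per the submitters' processing notes, HISAT2 2.0.4 and HTSeq 0.6.1p1 were used on TAIR10. Counting mode, strand setting and the tool behind FPKM: not given in the sources used here.

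The main test was edgeR 4.0.16 (R 4.3.3): quasi-likelihood F test on counts, TMM scaling, default expression filter, Benjamini-Hochberg adjustment over all genes tested, calls at an adjusted p under 0.05. The salt series, the heat series and the control sets were each fitted with 12 libraries, and heat against salt with 24. SEs were computed over libraries on log2 CPM (prior count 2). Alternatives were RLE factors, total counts, DESeq2 1.42.0, no filter, a replicate block, limma 3.58.1 on log2 FPKM, 1 fit of all libraries, and leaving out each library. Total-count scaling of the gene lists was added after seeing the data. The tests were tried on simulated counts. Paralogue ratios used exact permutation tests.

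The 10 members and the gene lists were chosen with earlier results of these data known. Named genes are all members, up to 4 genes per list and contrast with the smallest adjusted p, and the 5 genes most like the members. All shoot and leaf markers and PAM68, PSAD2, PSAH2, PSB28, PSBX, PSBP2, SIG2, PETE1 and ATPD were named after their values were seen. Sequences are RefSeq TAIR10.1, read by a script as the 250 bases before each gene's start.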

Additional observations from a re-analysis of the deposited data

Results flagged for a closer look

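The salt change differed between exa1-1 and WT for all 10 members by the test of the difference itself (edgeR interaction, adjusted p under 0.05). It did so for 9 members with DESeq2 and with limma on log2(FPKM + 0.1), where PSBR missed the threshold. In the edgeR fit of all 24 libraries it also did so for 9, where PSAE1 missed it. The log2 differences were -0.68 for PSBO2, -0.59 for PSAN, -0.47 for PSBP1, -0.45 for PSBR, -0.38 for PSBQ2, -0.36 for PSAG, -0.34 for PSBO1, -0.31 for PSAF, -0.29 for PSAD1 and -0.26 for PSAE1. The heat change differed for PSAD1, at -0.49.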

How the results depend on the processing

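Of 2180 values of single members under the alternatives, 2109 kept their side of the threshold, 35 fell below it and 27 passed it. The other 9 turned sign where the main fit had called them. A turn of sign where neither fit passed the threshold was counted among the 2109. PSBO2 between the genotypes at 39 °C was such a case, at log2 0.0062 with TMM scaling and -0.0412 with total counts. The 9 were heat against salt changes under total-count scaling: PSAN in WT was at -0.0904 with total counts, -0.0843 with limma on log2(FPKM + 1) and -0.0873 with log2(FPKM + 0.1). In the same order, PSBO1 was at -0.033, -0.0326 and -0.0328 in exa1-1 and at -0.0953, -0.0943 and -0.0946 in WT. On 1/2 MS, the count of members higher in exa1-1 was 1 in place of 0 (PSBO2) with total counts, no filter or the replicate block. At 39 °C, 8 members were lower in exa1-1 with total counts in place of 7, with PSBP1 added. Members with a lower heat change in exa1-1 numbered 5 with total counts, 2 without a filter, and 3 with DESeq2, both limma fits and the fit of 24 libraries, in place of 1. Of all genes, 1563 had a lower change with total counts, 881 without a filter and 810 with DESeq2, in place of 773. With limma 1276 and 1211 did, and 1163 in the fit of 24 libraries. The cause of the differing member counts was not tested. Leaving out 1 library gave 1 to 2 members with a lower heat change, and 0 to 1 members higher in exa1-1 at 23 °C. It gave 8 to 9 members higher with NaCl in exa1-1, 9 to 10 lower for the salt interaction, 4 to 5 lower on 1/2 MS, 2 to 4 at 23 °C and 6 to 8 at 39 °C. Deviations from the group mean correlated little between libraries of the same replicate number in differing groups (36 pairs, r from -0.05 to 0.10). Pairs of differing number were not computed, so these values cannot show whether the numbers pair the libraries. With the block 4 members were lower at 23 °C in place of 3. At 1825 counts or more, depth did not limit the members, but 10 of 20 chloroplast-encoded genes were too low to test in the salt series.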
